A study of Bos taurus with 6 samples.

Results

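Genes for histone modifying enzymes were examined in bovine blastocysts, as the 78 genes of 36075 in the expression table whose symbols fall in the KMT, KDM, SETD, HDAC, KAT and PRMT series or name a Polycomb subunit, an H3K9 or H3K36 methyltransferase outside those series, DOT1L, EP300 or CREBBP. The symbols were matched by a fixed pattern, and the pattern itself used no measured value, although the group was proposed with earlier results of these data known. Control blastocysts came from oocytes matured for 22 h without melatonin (MT), and MT-treated blastocysts from oocytes given MT at 1e-07 mol/L over the same time. MT is a pineal hormone and free-radical scavenger. Values of the 2 groups are given below as in control and with MT, each for libraries 1, 2 and 3 in that order. Both groups came from cumulus-oocyte complexes of slaughterhouse ovaries that were fertilised in vitro and cultured in the same way, up to the blastocyst stage. Each group had 3 libraries from independent production runs, in which oocytes were pooled and then divided among the treatments, and each library was made from a pool of 3 blastocysts, so neither single embryos nor the cell types of the blastocyst were resolved. MT concentration, maturation time and pool size were taken from the methods of the study, as the labels do not give them.

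Histones carry acetyl and methyl groups that are placed by writer enzymes and removed by erasers. Methylation of lysine 4 of histone H3 (H3K4) marks active promoters and enhancers, methylation of H3K36 and H3K79 follows transcription, and methylation of H3K9, H3K27 and H4K20 accompanies silent or compacted chromatin. Acetyltransferases open chromatin and deacetylases close it again. In the early embryo these marks are rewritten from the gametes' pattern while the embryonic genome is switched on and while the trophectoderm, the outer layer, parts from the inner cell mass.

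Levels are in TPM, which correct for transcript length and for the library total, so that levels of different genes can be set side by side. The listed TPM summed to 936783 to 937698 in the control libraries and to 912686 to 913707 in the MT-treated libraries. Part of each total is therefore not listed, a larger part with MT, and the reason was not tested. Depth and counting error cannot be derived from TPM. The number of genes above 0 was 8854 to 8953 in the control libraries and 14372 to 14408 in the MT-treated libraries. A gene listed at 0 may have been absent or not captured or counted, so only the listing is reported for it. Of all tested genes, 33.8% were at 0 in every control library, and whether both groups went through the same capture, counting and annotation was not tested and cannot be read from TPM. Calls that rest on a 0 in control therefore compare what was listed and may not reflect expression. Trophectoderm markers were high in both groups (summed 11465 to 11806 TPM in control and 10682 to 11034 TPM with MT, 8 of 9 markers in the table), nearly all from the keratins KRT8 and KRT18. In TPM, KRT8 was lower with MT and the other 7 were higher, among them GATA2 with 7.07 ± 0.506 TPM in control and 49.1 ± 1.29 TPM with MT (SD, n = 3 each), but median centring turned KRT8 to higher and quantile normalization ended the call of TEAD4. CDX2, a defining trophectoderm factor, was listed at 0 in each control library against 17.2, 15.03 and 16.1 TPM with MT. Of 5 inner cell mass markers, NANOG was listed at 0 in all control libraries, and the summed level was 220.1 to 221 TPM in control and 302 to 305 TPM with MT. Most of that rise came from KLF4, with means of 18.1 TPM in control and 83.8 TPM with MT. POU5F1, which made up most of the sum, and PRDM14 were not called in TPM. Both were called higher after median centring, and after quantile normalization POU5F1 was called higher and PRDM14 lower. Hypoblast markers summed to 0.2 to 0.44 TPM in control libraries, with 3 of 4 at 0 in all of them, and to 53.5 to 57.5 TPM with MT, where GATA4 was at 0. Of 8 cumulus and granulosa cell markers in the table, 7 were at 0 in all control libraries and 5 in all MT-treated libraries, and the summed level was 17.2 to 19.2 and 15.1 to 17.1 TPM, nearly all from FSHR. None of 9 maternal oocyte transcripts was above 0 in control, and their sum was 1.25 to 1.64 TPM with MT. The part of these shifts in the results on the enzymes was not tested, and in pooled embryos fewer cells of a type and less RNA per cell cannot be told apart.

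Of the 78 enzyme genes, 44, 44 and 43 were above 0 in control and 72, 73 and 71 with MT. HDAC11, HDAC9, KDM7A, SETD4 and SETDB2, 5 genes in all, had a value of 0 throughout. A further 9 were above 0 somewhere but fell short of the filter, which asked for 1 TPM or more in 3 or more libraries, and were not tested. These were KMT2B, SETD1B, KMT5C, SETD9, KDM6B, KAT2A, KAT6A, HDAC7 and PRMT9, of which HDAC7, with 0.96, 0.94 and 1.01 TPM with MT, came closest to the threshold. The other 64 were tested within a limma fit of all 11953 genes that passed the filter, on log2(TPM + 1), with Benjamini-Hochberg adjustment. Fold changes are on that scale, MT-treated minus control, with the standard error (SE) of the fit, and they understate changes at low levels. At an adjusted p under 0.05, 39 of the 64 were higher in MT-treated blastocysts (60.9%), against 61.6% of all tested genes, and 22 were lower (34.4%), against 34.1%. With at least a 2-fold difference as a further condition, 33 were higher (51.6%, against 51.0% of all tested genes) and 14 lower (21.9%, against 19.6%). Values of the groups did not overlap in 61 of the 64 (95.3%, against 96.1%). As a set, the enzymes therefore moved about as often as tested genes did at large, and the results below concern which enzymes moved in which direction. The median log2 fold change was 1.22 for the enzymes and 1.12 for all tested genes.

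A value of 0 in all 3 control libraries was found for 22 of the 39 that were higher, which is 34.4% of the tested enzymes, near the 33.8% of all tested genes. No tested enzyme was at 0 in all MT-treated libraries, where 3.01% of tested genes were. These 22 met the filter only through the MT-treated libraries, so that a call of higher was all but fixed by the filter. The same held for KMT2A, DOT1L, KDM2A and KDM4C, under 1 TPM in every control library. PRMT2, KDM1B and SETD1A were under 1 TPM in every MT-treated library and met the filter only through control. A call of lower was all but fixed for these. No p is given for the calls of all these genes in TPM. Fitted fold changes of the 22, and of DOT1L, KDM2A, KDM4C, PRMT2 and KDM1B, depend on the pseudocount. They are not given as sizes of change. Centring of the libraries on the median gene, taken over the genes at 1 TPM or more in all 6, removed a shift of -0.48 (log2, MT-treated minus control) and left 44 enzymes higher (68.8%, against 70.4% of all tested genes) and 17 lower (26.6%, against 25.4%). After quantile normalization, which gives all libraries the same distribution, 31 were higher (48.4%, against 46.4% of all tested genes) and 30 lower (46.9%, against 44.4%). Under all 3 scalings, 48 of the 64 were called in 1 and the same direction, and genes that were not are named as such beside their values. Counts by class below stand beside the 61.6% higher and 34.1% lower of all tested genes, and with 2 to 12 tested genes a class, no difference between classes was tested.

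The enzymes with the highest levels differed between the groups. In control blastocysts the order by mean TPM, over enzymes listed above 0, was HDAC1 with 227 ± 0.246 TPM (SD, n = 3), PRMT5 with 142 ± 2.99 TPM, PRMT1 with 117 ± 2.38 TPM, EZH2 with 88.9 ± 2.72 TPM and SUV39H2 with 67.9 ± 1.14 TPM. In MT-treated blastocysts HDAC1 was again first with 154 ± 0.917 TPM, followed by PRMT1 with 89.1 ± 1.84 TPM, EZH1 with 87.7 ± 11.3 TPM, KAT8 with 87.6 ± 3.65 TPM and KDM1A with 82.5 ± 0.966 TPM (SD, n = 3 each). PRMT1, EZH1, KAT8 and KDM1A were within 1 SD of EZH1 of each other, so their order is not resolved. Summed over the 78 genes, the level was 1306, 1314 and 1311 TPM in control and 1416, 1415 and 1405 TPM with MT. The sums lay close together while their makeup did not.

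**Figure D1:**
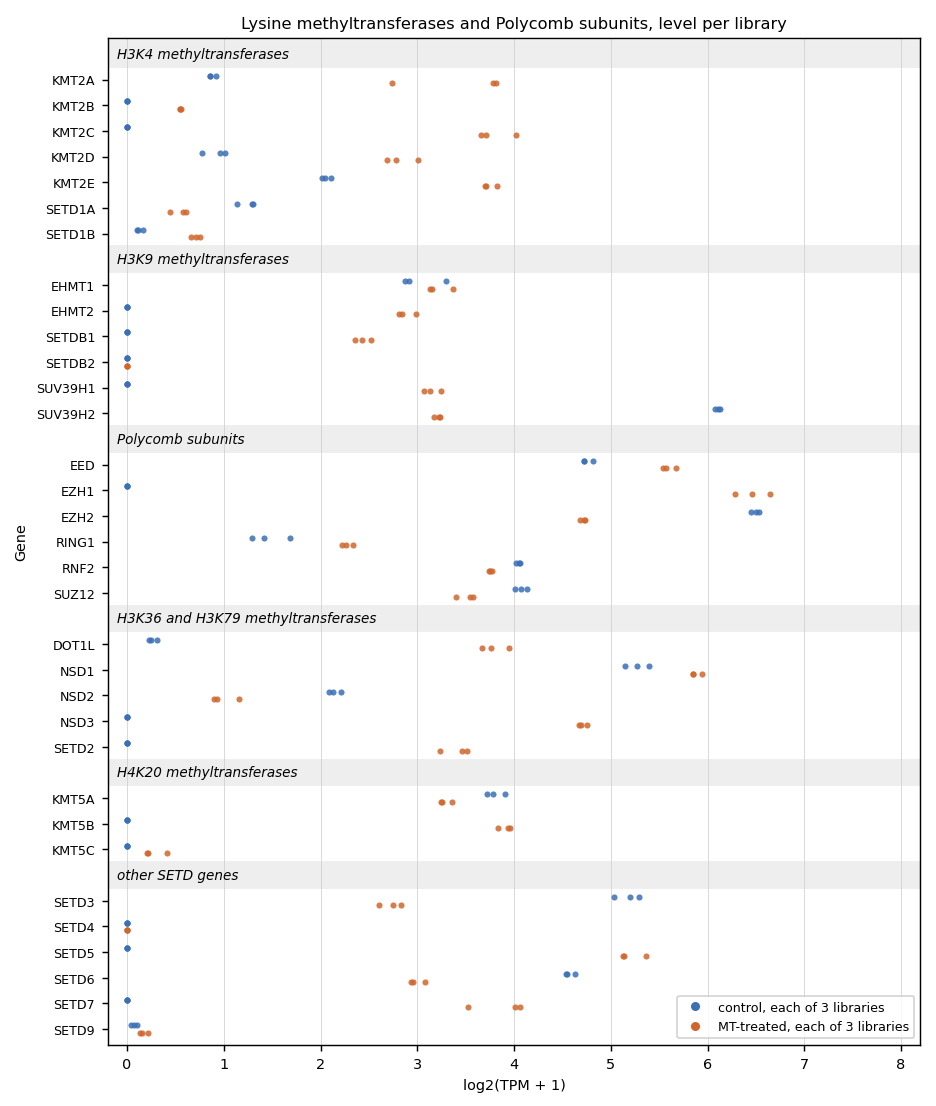
Level of each lysine methyltransferase and Polycomb gene in each library, as log2(TPM + 1) on the horizontal axis, with genes grouped by the residue they act on and 1 point for each of the 3 control (blue) and 3 MT-treated (orange) libraries. EZH2 and SUV39H2 lie to the right in control, and EZH1, NSD3 and SETD5, listed at 0 in every control library, lie to the right in MT-treated blastocysts.

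Polycomb genes encode the complexes that place and read the silencing mark on H3K27 (PRC2) and ubiquitinate histone H2A (PRC1). All 6 were tested, and 3 were higher and 3 lower, with 4 and 1 after median centring and 2 and 4 after quantile normalization. The catalytic subunit of PRC2 is either EZH2, typical of dividing cells, or its paralogue EZH1. EZH2 had 86.1, 89.3 and 91.5 TPM in control and 24.7, 25.6 and 25.3 TPM with MT (log2 fold change -1.78, SE 0.03, limma adjusted p = 1.14e-08). EZH1 was listed at 0 in each control library against 86.99, 99.3 and 76.8 TPM with MT. In each MT-treated library EZH1 was above EZH2, while for control the listing of EZH1 at 0 gives no order of the levels. EED, which binds the finished mark, rose from 25.3, 27.1 and 25.4 to 50.1, 46.6 and 45.5 TPM (log2 fold change 0.84, SE 0.05, limma adjusted p = 4.11e-06). SUZ12, the scaffold of the complex, fell from 15.1, 15.9 and 16.5 to 9.53, 10.9 and 10.7 TPM (limma adjusted p = 0.000132), a call that was lost after median centring (log2 fold change -0.084, limma adjusted p = 0.211). Of the PRC1 ubiquitin ligases, RNF2 had 15.5, 15.7 and 15.2 TPM in control and 12.4, 12.6 and 12.4 TPM with MT, a log2 fold change of -0.29 that became 0.19 after median centring. RING1 had 1.44, 2.22 and 1.67 and 4.03, 3.79 and 3.66 TPM, a log2 fold change of 0.81 that became -1.49 after quantile normalization.

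H3K9 methyltransferases write the mark of silent heterochromatin. Of 6 genes, 5 were tested, 3 were higher and 1 lower. SUV39H2, which trimethylates H3K9 at pericentric repeats, fell from 69.01, 67.9 and 66.7 to 8.01, 8.38 and 8.36 TPM with MT (log2 fold change -2.90, SE 0.03, limma adjusted p = 1.46e-09). Its paralogue SUV39H1 was listed at 0 in all control libraries against 8.46, 7.79 and 7.4 TPM with MT. The control libraries thus listed 1 of the SUV39H genes, and the MT-treated libraries listed both. EHMT1 and EHMT2 (G9a) act together as a dimer on H3K9 in euchromatin. EHMT1 had 6.33, 8.8 and 6.51 TPM in control and 7.9, 7.73 and 9.31 TPM with MT, with overlapping groups and no call (limma adjusted p = 0.205). Without control replicate 2 its log2 fold change was 0.32 and passed the test (limma adjusted p = 0.0159), after median centring it was 0.67 (limma adjusted p = 0.00265), and after quantile normalization it was -1.96 (limma adjusted p = 3.51e-06). EHMT2 was listed at 0 in the control libraries against 5.99, 6.91 and 6.18 TPM with MT. SETDB1, which silences retroelements, was likewise at 0 in control, with 4.74, 4.38 and 4.12 TPM with MT. Summed over the class, the level was 75.1 ± 1.73 TPM in control and 35.2 ± 0.137 TPM in MT-treated blastocysts (SD, n = 3 each), and SUV39H2 made up 90.4% of the control sum.

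H3K4 methyltransferases mark promoters and enhancers for transcription. Of 7 genes, 5 were tested, and 4 were higher (80%, against 61.6% of all tested genes) and 1 lower (20%, against 34.1%), though after quantile normalization 2 of the 4 were reversed and 1 lost its call. KMT2C, which acts at enhancers, was listed at 0 in each control library against 12.1, 15.2 and 11.6 TPM with MT. Its paralogue KMT2D had 0.71, 1.01 and 0.94 TPM in control and 5.43, 7.05 and 5.85 TPM with MT (log2 fold change 1.91, SE 0.10, limma adjusted p = 3.38e-06), which was reversed to -0.88 by quantile normalization. KMT2E, a relative without methyltransferase activity, had 3.13, 3.03 and 3.32 and 12.1, 13.2 and 12.01 TPM, with log2 fold changes of 1.69 and, after quantile normalization, -0.43. KMT2A had 0.81, 0.81 and 0.89 TPM in control and 12.8, 13.03 and 5.68 TPM with MT, and its log2 fold change of 2.57 became -0.016 after quantile normalization, with the call lost (limma adjusted p = 0.969). The third MT-treated library lay far below the other two for KMT2A. SETD1A, of the SET1 complexes that place most trimethylated H3K4, was the only called gene of the class that was lower, with 1.44, 1.46 and 1.2 and 0.53, 0.36 and 0.49 TPM. It met the filter only through control.

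Methyltransferases of H3K36 and H3K79 act along transcribed genes. All 5 were tested, and 4 were higher and 1 lower. NSD1, which dimethylates H3K36, rose from 41.1, 37.5 and 34.4 to 56.6, 56.5 and 60.6 TPM with MT (log2 fold change 0.61, SE 0.07, limma adjusted p = 0.000169). NSD2 fell from 3.64, 3.24 and 3.36 to 0.91, 1.23 and 0.86 TPM (log2 fold change -1.15, SE 0.08, limma adjusted p = 1.29e-05). NSD3 was listed at 0 in each control library against 26.04, 24.9 and 24.4 TPM with MT. NSD1 and NSD2 therefore differed in direction, while the listing of NSD3 at 0 in control gives none. SETD2, the main enzyme for trimethylated H3K36, was at 0 in all control libraries against 8.41, 10.4 and 9.99 TPM with MT. DOT1L, the H3K79 methyltransferase, had 0.17, 0.24 and 0.19 TPM in control and 11.7, 14.4 and 12.6 TPM with MT. The H4K20 enzymes divide into KMT5A, which adds the first methyl group, and KMT5B and KMT5C, which add further ones. KMT5A had 12.2, 12.8 and 14.04 and 8.53, 8.49 and 9.29 TPM, with a log2 fold change of -0.52 (limma adjusted p = 0.000241) that median centring reduced to -0.038, with the call lost. KMT5B was at 0 in every control library against 14.6, 14.4 and 13.3 TPM with MT. Among the other SETD genes, several of whose products act on other proteins, SETD3, an actin histidine methyltransferase, fell from 35.6, 38.2 and 31.6 to 5.09, 6.11 and 5.72 TPM (limma adjusted p = 3.96e-07). SETD6 fell from 22.4, 23.8 and 22.3 to 7.48, 6.75 and 6.65 TPM (limma adjusted p = 2.61e-07). SETD5 and SETD7 were both listed at 0 in the control libraries. In the MT-treated libraries SETD5 had 40.1, 34.3 and 33.9 TPM and SETD7 had 15.1, 10.5 and 15.7 TPM.

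**Figure D2:**
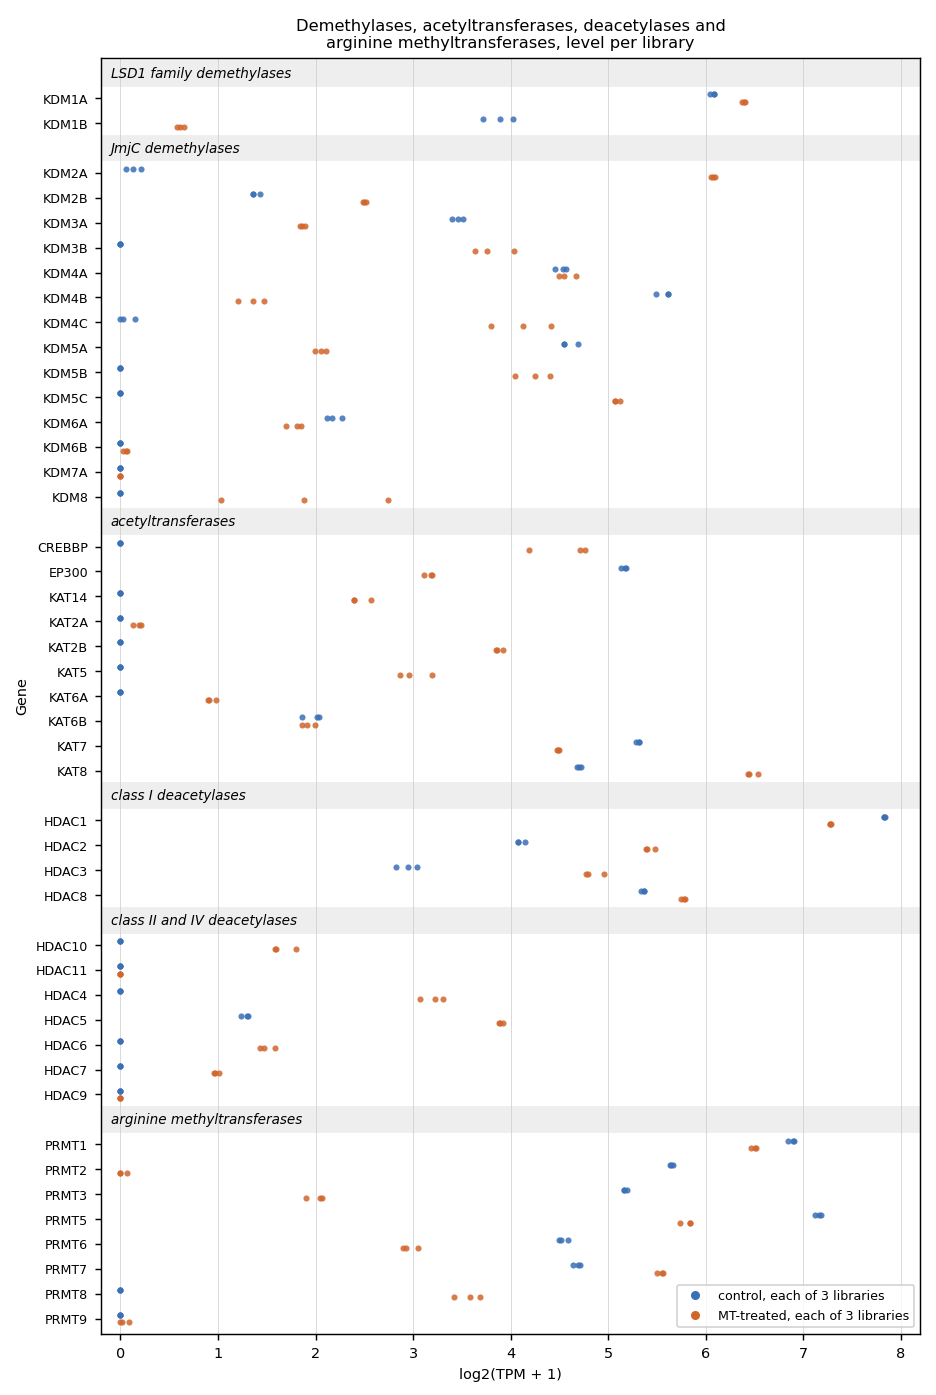
Level of each demethylase, acetyltransferase, deacetylase and arginine methyltransferase gene in each library, as log2(TPM + 1) on the horizontal axis, with 1 point for each of the 3 control (blue) and 3 MT-treated (orange) libraries. KDM4B, KDM5A, PRMT2 and PRMT3 lie far to the right in control, whereas KDM2A and KDM5C lie far to the right in MT-treated blastocysts, and KDM4A and KAT6B overlap between the groups.

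Lysine demethylases are of the LSD1 type, which use flavin, or of the JmjC type, which use iron and 2-oxoglutarate. KDM1A (LSD1), which removes H3K4 methylation in deacetylase complexes, was high in both groups and rose from 66.7, 65.01 and 66.8 to 81.5, 83.4 and 82.7 TPM (log2 fold change 0.31, SE 0.02, limma adjusted p = 1.11e-05). KDM1B, its oocyte paralogue required for maternal imprints in the mouse, had 12.2, 15.3 and 13.8 TPM in control and 0.57, 0.53 and 0.49 TPM with MT, and met the filter only through control. Of 14 JmjC genes, 12 were tested, 7 were higher and 4 lower, with 8 and 3 after median centring and 5 and 5 after quantile normalization. The H3K9 demethylases of the KDM4 family each behaved differently. KDM4A had 20.9, 22.2 and 22.7 TPM in control and 21.6, 22.4 and 24.4 TPM with MT, with overlapping groups (limma adjusted p = 0.392), and its log2 fold change was 0.53 and past the threshold after median centring and -0.022 after quantile normalization. KDM4B fell from 47.9, 43.9 and 48 to 1.77, 1.57 and 1.31 TPM (log2 fold change -4.23, SE 0.08, limma adjusted p = 1.47e-08). KDM4C had 0.11, 0.02 and 0 TPM in control and 20.4, 16.5 and 12.9 TPM with MT. Of these paralogues, KDM4B was thus high in control alone, KDM4C with MT alone, and KDM4A had similar values in both. The KDM5 family holds H3K4 demethylases. KDM5A fell from 22.4, 22.4 and 24.9 to 2.98, 3.3 and 3.15 TPM (log2 fold change -2.55, SE 0.06, limma adjusted p = 3.57e-08). KDM5B and KDM5C were listed at 0 in the control libraries, against 20.2, 15.5 and 18.01 TPM and 32.6, 33.8 and 32.6 TPM with MT.

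KDM2A, a CpG island binding demethylase of H3K36, had 0.04, 0.16 and 0.09 TPM in control and 66.4, 67.2 and 65.3 TPM with MT. Its paralogue KDM2B, which brings a PRC1 variant to CpG islands, had 1.7, 1.57 and 1.57 and 4.65, 4.62 and 4.74 TPM, with a log2 fold change of 1.12 that was reversed to -1.32 by quantile normalization. In the KDM3 family, which acts on H3K9, KDM3A fell from 9.54, 10.4 and 10.01 to 2.63, 2.58 and 2.7 TPM (log2 fold change -1.59, SE 0.04, limma adjusted p = 8.02e-08). KDM3B was at 0 in every control library against 11.4, 12.5 and 15.4 TPM with MT. The H3K27 demethylase KDM6A was low in both groups, with 3.33, 3.84 and 3.5 and 2.24, 2.61 and 2.5 TPM, and its log2 fold change of -0.40 became 0.078 after median centring, with the call lost (limma adjusted p = 0.266). KDM6B did not exceed 0.05 TPM in any library. KDM8 was at 0 in the control libraries against 5.71, 2.69 and 1.04 TPM with MT, a spread of several fold, and the call was lost after quantile normalization.

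Acetyltransferases were represented by 10 genes, of which 8 were tested, 5 were higher and 2 lower. EP300 and CREBBP encode paralogous coactivators that acetylate H3K27 at enhancers. EP300 fell from 34.2, 35.2 and 35.1 to 7.63, 8.14 and 8.09 TPM with MT (log2 fold change -2.00, SE 0.03, limma adjusted p = 1.16e-08). CREBBP was listed at 0 in each control library against 17.2, 25.2 and 26.2 TPM with MT. All 6 libraries listed EP300, and the level of CREBBP was above that of EP300 in each MT-treated library. KAT8 (MOF), which acetylates H4K16, rose from 25.02, 24.7 and 25.4 to 85.1, 85.9 and 91.8 TPM (log2 fold change 1.76, SE 0.04, limma adjusted p = 2.3e-08). KAT7 (HBO1), linked to replication origins, fell from 38.02, 38.8 and 38.7 to 21.6, 21.3 and 21.3 TPM (log2 fold change -0.82, SE 0.02, limma adjusted p = 1.21e-07). KAT6B had 2.64, 3.04 and 3.1 and 2.77, 2.97 and 2.64 TPM, with overlapping groups (limma adjusted p = 0.463). Its log2 fold change was 0.43 after median centring and -1.96 after quantile normalization, both past the threshold. KAT2B (PCAF), KAT5 (TIP60) and KAT14 were at 0 in the control libraries, and in the MT-treated libraries KAT2B had 14.1, 13.5 and 13.4 TPM, KAT5 6.29, 6.75 and 8.16 TPM and KAT14 4.26, 4.25 and 4.92 TPM.

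Class I deacetylases are the nuclear catalytic subunits of the corepressor complexes, and all 4 were above 0 in all libraries. HDAC1 had 227, 227 and 227 TPM in control and 154, 153 and 155 TPM with MT (log2 fold change -0.55, SE 0.01, limma adjusted p = 5.88e-08), and its log2 fold change was -0.074 after median centring. HDAC2 rose from 16.7, 15.8 and 15.9 to 43.6, 41.1 and 40.7 TPM (log2 fold change 1.32, SE 0.04, limma adjusted p = 1.3e-07). HDAC3, the enzyme of the NCOR complexes, rose from 6.07, 6.73 and 7.21 to 26.4, 26.8 and 29.96 TPM (log2 fold change 1.90, SE 0.07, limma adjusted p = 6.06e-07). HDAC8, which deacetylates cohesin, rose from 40.2, 40.4 and 39.3 to 53.6, 52.8 and 54.3 TPM (log2 fold change 0.41, SE 0.02, limma adjusted p = 4.53e-06). The summed level of the class was 289.6 ± 0.11 TPM in control and 277 ± 3.13 TPM in MT-treated blastocysts (SD, n = 3 each), a direction that turned when the sums were taken as a share of the genes present in all libraries (log2 ratio 0.068). HDAC1 made up 78.3% of the control sum and 55.6% of the other. Class II and IV deacetylases, which shuttle to the cytoplasm or act there, were at 0 in all control libraries except HDAC5. HDAC5 had 1.35, 1.47 and 1.46 TPM in control and 13.9, 13.7 and 14.1 TPM with MT (log2 fold change 2.62, SE 0.04, limma adjusted p = 4.31e-09). HDAC4 was listed at 0 in all control libraries against 8.91, 8.32 and 7.43 TPM with MT. HDAC6, a tubulin deacetylase, and HDAC10 were also at 0 in control, with 2, 1.78 and 1.69 TPM and 2.48, 2.01 and 1.99 TPM with MT, and the fitted sign of both turned after quantile normalization.

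Of 8 arginine methyltransferases, 7 were tested, and 2 were higher (28.6%, against 61.6% of all tested genes) and 5 lower (71.4%, against 34.1%), with 3 higher (42.9%, against 70.4%) and 4 lower (57.1%, against 25.4%) after median centring, which reversed PRMT1. The difference from all tested genes was not tested. PRMT5, the main enzyme for symmetric dimethylation of arginine, fell from 143, 138 and 144 to 56.3, 52.5 and 56.1 TPM with MT (log2 fold change -1.35, SE 0.03, limma adjusted p = 7.43e-08). PRMT1, the main enzyme for asymmetric dimethylation, had 118, 118 and 114 and 90.7, 87.1 and 89.6 TPM, with a log2 fold change of -0.39 (limma adjusted p = 9.15e-06) that became 0.093 after median centring. PRMT2 had 48.9, 48.7 and 49.6 TPM in control and 0, 0.05 and 0 TPM with MT, and met the filter only through control. PRMT2 was the seventh most abundant of the enzymes in control and at or near 0 in every MT-treated library. PRMT3, which methylates a ribosomal protein, fell from 34.7, 35.6 and 34.8 to 2.74, 3.18 and 3.12 TPM (log2 fold change -3.17, SE 0.05, limma adjusted p = 8.11e-09). PRMT6, which methylates H3R2, fell from 21.6, 21.9 and 23.1 to 6.59, 6.47 and 7.26 TPM (limma adjusted p = 2.37e-07). PRMT7, which adds a single methyl group, rose from 23.96, 25.2 and 24.7 to 46.1, 44.4 and 45.8 TPM (limma adjusted p = 3.9e-07). PRMT8, a membrane-bound relative of PRMT1, was listed at 0 in the control libraries against 10.98, 9.69 and 11.8 TPM with MT. Summed over the class, the level was 389 ± 1.61 TPM in control and 210.2 ± 5.92 TPM in MT-treated blastocysts (SD, n = 3 each).

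**Figure D3:**
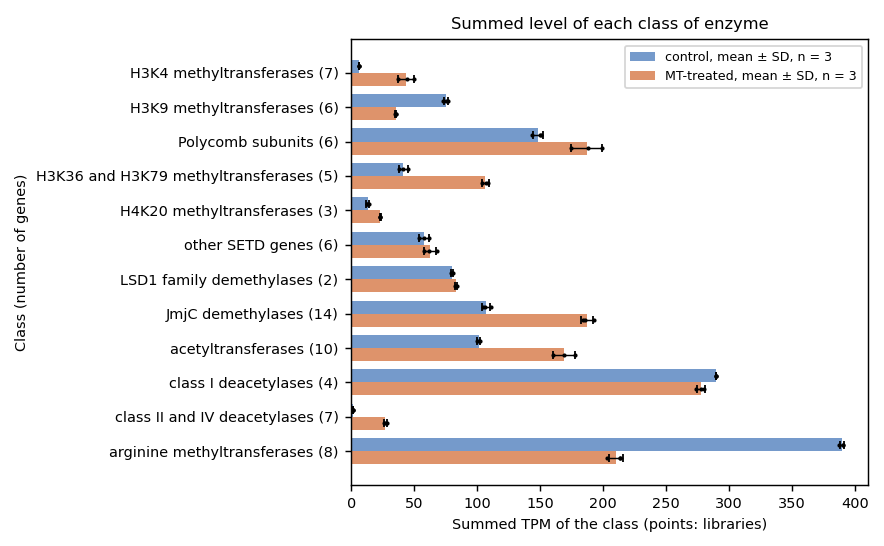
Summed TPM of the members of each class in control (blue) and MT-treated (orange) blastocysts, as bars for the mean with the SD of 3 libraries and points for the libraries. Arginine methyltransferases (389 against 210.2 TPM) and H3K9 methyltransferases (75.1 against 35.2 TPM) had lower sums in MT-treated blastocysts, class II and IV deacetylases (1.43 against 27.1 TPM) and H3K4 methyltransferases (6.34 against 43.6 TPM) had higher ones, and class I deacetylases (289.6 against 277 TPM) were lower in TPM but not as a share of the genes present in all libraries.

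Summed levels of the remaining classes are a description without a test. H3K4 methyltransferases summed to 6.34 ± 0.115 TPM in control and 43.6 ± 6.52 TPM in MT-treated blastocysts (SD, n = 3 each), and H3K36 and H3K79 methyltransferases to 41.3 ± 3.5 and 106 ± 2.5 TPM. JmjC demethylases summed to 107 ± 3.32 and 187 ± 4.64 TPM, and acetyltransferases to 101 ± 1.29 and 169 ± 8.72 TPM. The largest contributor of a class changed between the groups in several of these, from KDM4B to KDM2A among JmjC demethylases and from KAT7 to KAT8 among acetyltransferases. For Polycomb subunits the sums were 148 ± 3.92 and 187 ± 12.2 TPM, with EZH2 giving 60.1% of the first and EZH1 46.9% of the second. LSD1 family demethylases summed to 79.9 ± 0.93 and 83.1 ± 0.94 TPM, H4K20 methyltransferases to 13 ± 0.958 and 23.1 ± 0.279 TPM and other SETD genes to 58 ± 4.04 and 62.6 ± 5.06 TPM. The higher MT-treated sums of Polycomb subunits, H4K20 methyltransferases and other SETD genes rested on genes listed at 0 in every control library. These were EZH1, KMT5B, and SETD5 with SETD7, without which each of these sums was lower with MT than in control. Class II and IV deacetylases went from 1.43 ± 0.0666 to 27.1 ± 1.03 TPM, the largest ratio of the 12 classes, with all but HDAC5 at 0 in control.

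Ratios between paired enzymes within a library are not changed by a factor common to its genes, apart from the pseudocount of 1, but quantile normalization does change them. Of 24 pairs listed, 17 had both genes tested, and the log2 ratio of (TPM + 1) was compared between the groups in these 17. In 8 of them neither gene was at 0 throughout control, and these are described. HDAC1 over HDAC2 had a log2 ratio of 3.73 ± 0.04 in control and 1.86 ± 0.05 in MT-treated blastocysts (SD, n = 3 each). HDAC3 over HDAC8 went from -2.42 ± 0.12 to -0.93 ± 0.08, and PRMT1 over PRMT5 from -0.28 ± 0.05 to 0.69 ± 0.03. PRMT5 was thus the more abundant of that pair in control, and PRMT1 in MT-treated blastocysts. KDM1A over KDM1B went from 2.19 ± 0.17 to 5.77 ± 0.05, and NSD1 over NSD2 from 3.13 ± 0.09 to 4.88 ± 0.18. KDM1B was under 1 TPM with MT, and with a pseudocount of 0.1 the difference of its pair was 4.77 in place of 3.58. KDM2A over KDM2B changed sign, from -1.25 ± 0.12 to 3.57 ± 0.04, but KDM2A was near 0 in control, so that its control ratio rests on the pseudocount, and with one of 0.1 the difference was 6.97 in place of 4.82. KDM4A over KDM4C, with KDM4C at 0 in 1 control library and near 0 in the others so that this control ratio rests on it too, went from 4.46 ± 0.14 to 0.46 ± 0.39. RNF2 over RING1 went from 2.58 ± 0.19 to 1.48 ± 0.06. After quantile normalization the 8 differences kept their sign, but that of RNF2 over RING1 shrank from -1.10 to -0.18, that of KDM4A over KDM4C from -4.00 to -1.99 and that of HDAC3 over HDAC8 from 1.49 to 0.72, while those of NSD1 over NSD2, KDM1A over KDM1B and KDM2A over KDM2B grew from 1.76 to 3.398, from 3.58 to 4.41 and from 4.82 to 5.72. For each of these pairs the groups did not overlap (exact permutation test, two-sided, p = 0.1, adjusted p = 0.1 over 17 pairs), and 0.1 is the smallest p that 3 libraries against 3 can give.

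**Figure D4:**
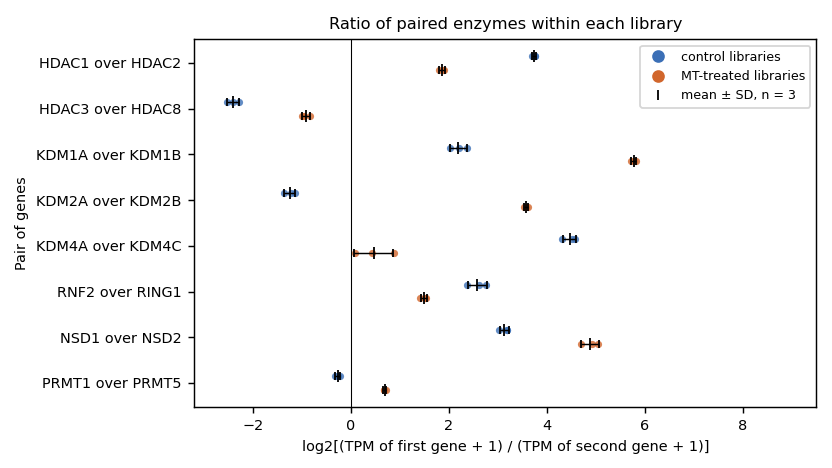
Log2 ratio of (TPM + 1) between paired enzymes in each control (blue) and MT-treated (orange) library, with ticks and bars for the mean and SD of 3 libraries, for the 8 pairs in which neither gene was at 0 in all control libraries (KDM4C was at 0 in 1 of them). The line at 0 marks equal levels, which PRMT1 over PRMT5 and KDM2A over KDM2B cross between the groups.

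Genes that act with these enzymes, collected from general knowledge into 6 lists, numbered 144 in the table, of which 116 were tested, 65 were higher (56.0%, against 61.6% of all tested genes) and 46 lower (39.7%, against 34.1%). After median centring 76 were higher (65.5%, against 70.4%) and 32 lower (27.6%, against 25.4%), and after quantile normalization 52 were higher (44.8%, against 46.4%) and 59 lower (50.9%, against 44.4%). Of 11 partners of the KMT2 and SET1 complexes, 3 were higher (27.3%, against 61.6% of all tested genes) and 7 lower (63.6%, against 34.1%), with 5 higher and 5 lower after median centring and 2 and 9 after quantile normalization. ASH2L and RBBP5, core subunits shared by these complexes, fell from 40.9, 39.3 and 40.2 to 8.61, 8.24 and 9.23 TPM and from 42.2, 44.5 and 43.9 to 10.04, 10.1 and 9.99 TPM, with log2 fold changes of -2.09 and -2.01. CXXC1, the CpG-binding subunit of the SET1 complexes, was at 0 in control against 9.26, 7.97 and 8.76 TPM with MT, and PAGR1 rose from 9.06, 8.38 and 9.55 to 30.1, 28.7 and 28.1 TPM. The other core subunits, WDR5 and DPY30, were lower as well, with log2 fold changes of -0.71 and -0.38, of which that of DPY30 became 0.099 after median centring, and both were chosen for naming after their values were seen.

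Of 20 Polycomb partners, 14 were higher (70%, against 61.6% of all tested genes) and 6 lower (30%, against 34.1%), with 17 and 3 after median centring and 11 and 8 after quantile normalization. BMI1 and PHC1, both of canonical PRC1, fell from 32.7, 32.9 and 31.8 to 7.75, 7.25 and 7.13 TPM and from 9.45, 9.56 and 9.09 to 2.03, 2.13 and 2 TPM. PCGF1 and YAF2, both of variant PRC1, were listed at 0 in control against 48.6, 49.6 and 46.1 TPM and 54.2, 55.2 and 50.1 TPM with MT. Of 23 deacetylase complex partners, 16 were higher (69.6%, against 61.6% of all tested genes) and 7 lower (30.4%, against 34.1%), with 16 and 5 after median centring and 12 and 10 after quantile normalization. MIER1, a corepressor that binds HDAC1 and HDAC2, fell from 245, 259 and 250.1 to 23.1, 25.9 and 23.6 TPM (log2 fold change -3.32, SE 0.05, limma adjusted p = 5.39e-09). GATAD2A, a subunit of the NuRD complex, fell from 38.7, 37.2 and 44.6 to 4.84, 4.73 and 5.78 TPM. DNTTIP1, a partner of HDAC1 and HDAC2, was at 0 in control against 60, 57.8 and 58.6 TPM with MT, and GPS2, a subunit of the NCOR complexes with HDAC3, had 0, 0.04 and 0 TPM in control and 58.4, 53.6 and 57.1 TPM with MT.

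Of 28 acetyltransferase complex partners, 13 were higher (46.4%, against 61.6% of all tested genes) and 14 lower (50%, against 34.1%), a majority that turned to 16 higher and 10 lower after median centring, with 11 and 16 after quantile normalization. JADE3, a subunit of the KAT7 complex, fell from 48.4, 47.7 and 48.3 to 2.08, 2.15 and 1.69 TPM, and KANSL2, of the NSL complex of KAT8, from 64.8, 63.96 and 63.8 to 6.39, 6.06 and 6.52 TPM. MSL1, the scaffold of the MSL complex of KAT8, was at 0 in control against 16.7, 12.8 and 12.97 TPM with MT, and TADA1 of the SAGA complex at 0 against 9.54, 11.1 and 9.53 TPM. Of 14 readers, 8 were higher (57.1%) and 5 lower (35.7%), against 61.6% and 34.1% of all tested genes, with 9 and 4 after median centring and 6 and 6 after quantile normalization. CBX1, a heterochromatin protein that binds methylated H3K9, fell from 25.6, 27.2 and 25.99 to 5.35, 5.47 and 5.16 TPM, and BRD3, a reader of acetylated histones, from 21.96, 23.2 and 22.7 to 2.84, 3.04 and 3.5 TPM. TRIM24 rose from 1.61, 1.64 and 1.4 to 32.6, 35.1 and 34.3 TPM, and L3MBTL2 was at 0 in control against 10.1, 9.9 and 11.7 TPM with MT. The last list held enzymes of these classes with other symbols, together with WDR77 and CLNS1A, which are partners of PRMT5. Of its 20 tested genes, 11 were higher (55%) and 7 lower (35%), against the same 61.6% and 34.1%, with 13 and 5 after median centring and 10 and 10 after quantile normalization. SMYD4 had 20.8, 22.3 and 22.97 TPM in control and was listed at 0 in every MT-treated library, whereas RIOX2 was at 0 in control against 18.6, 17.9 and 19.6 TPM with MT. For the paralogous coactivators NCOA1 and NCOA3, the control values were 81.8, 82.2 and 75.7 TPM for NCOA1 and 0, 0.01 and 0 TPM for NCOA3. In the MT-treated libraries the values were 19.6, 21.1 and 21.8 TPM for NCOA1 and 22.5, 24.2 and 25.3 TPM for NCOA3.

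Replicates within a group were close for most of the enzymes. Over the 29 genes with a control mean of at least 5 TPM, the median coefficient of variation was 3.06%, and over the 47 with such a mean in MT-treated blastocysts it was 6.25%. For HDAC1 in control it was 0.108%. The SE and p values above measure the spread between the libraries as deposited. Whether that holds the full spread between production runs was not tested. Among tested enzymes with an MT-treated mean of at least 1 TPM, the widest relative spread was that of KDM8, from 1.04 to 5.71 TPM. Leaving out any 1 library changed the call of EHMT1 and of no other enzyme.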

How the data were processed

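RNA from 3 control and 3 MT-treated libraries of bovine blastocysts was analysed, 1 table for the series. Per the labels and the methods, the authors checked reads with FastQC 0.11.9, aligned them with STAR 2.7.9a, counted them with featureCounts of Subread 1.6.3 and tested them with DESeq2. The labels name the build ARS-UCD1.2 and the methods a later one, and the labels name a TruSeq kit where the methods name Smart-seq2. The authors deposited TPM per gene, rounded, and how counts became TPM is not given in the sources used here, nor is strand, so overlapping and antisense genes cannot be told apart. TPM keeps no counts, so depth, sampling noise between replicates and the authors' count test were out of reach.

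The scale was log2(TPM + 1), and the filter 1 TPM or more in 3 or more libraries. The model was limma 3.58.1 (lmFit, then eBayes with trend, R 4.3.3), tested on simulated data, with Benjamini-Hochberg adjustment over all tested genes at 0.05. Ratios of paired genes had an exact permutation test, two-sided. Python 3.11.15 with pandas 2.3.3 made the counts, and matplotlib 3.10.9 the figures. The alternatives tried were no filter, a filter at 5 TPM, one on a mean of 1 TPM, a pseudocount of 0.1, quantile normalization, median centring, no intensity trend, a replicate block and each library left out.

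Members, partner lists, pairs and markers were chosen with earlier results of these data known. Every member is accounted for. Values by library are given for members with a mean of at least 20 TPM in a group, for the largest rise and fall of each class, for members at 0 throughout a group with at least 5 TPM in the other, and for further members of the families described, which were added after their values were seen. Partner genes are the 2 largest rises and 2 largest falls of each list whose groups do not overlap, plus WDR5 and DPY30, chosen after their values were seen. Sequences were not used here.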

Additional observations from a re-analysis of the deposited data

How the results depend on the processing

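Quantile normalization moved most counts. With at least a 2-fold difference, it left 18 enzymes higher and 23 lower, 27 partner genes higher and 38 lower, and 3085 of all tested genes higher. Of all tested genes 3111 were then lower, against 2344 before. It turned the sign of KMT2A (log2 fold change -0.016), KMT2D (-0.88), KMT2E (-0.43), EHMT1 (-1.96), RING1 (-1.49), KDM2B (-1.32), KDM4A (-0.022), KDM8 (-0.17), HDAC10 (-0.28) and HDAC6 (-0.36), of which KMT2A, KDM4A and KDM8 did not pass the test and KDM8, HDAC10 and HDAC6 were at 0 in control, where a fitted value is no size of change, and, as an alternative chosen after seeing the data, of the ratio of HDAC4 over HDAC5 (difference -0.012, from 0.58). Median centring turned the sign of RNF2 (0.19), KAT6B (0.43) and PRMT1 (0.093), all past the threshold, and of KDM6A (0.078), which lost its call, as did SUZ12 and KMT5A. It brought EHMT1 (0.67) and KDM4A (0.53) past the threshold. Under the other filters, the pseudocount of 0.1 and no intensity trend, no enzyme that was tested in both changed direction or call, with 47 higher and 22 lower of 73 without a filter (all genes 8871 and 4372 of 16288) and 32 and 19 of 53 at 5 TPM (all genes 5750 and 3815 of 10005). With 1 library left out, 39 to 40 were higher and 22 lower. As a share of the genes present in all libraries, the summed class levels moved to log2 ratios (MT-treated over control) of -0.96 for H3K9 methyltransferases, 0.47 for Polycomb subunits, 1.498 for H3K36 and H3K79 methyltransferases, 0.96 for H4K20 methyltransferases, 0.19 for LSD1 family demethylases, 0.94 for JmjC demethylases, 0.87 for acetyltransferases, 4.38 for class II and IV deacetylases and -0.76 for arginine methyltransferases, and for class I deacetylases from -0.063 to 0.068, a change of sign. The cause of these shifts was not tested beyond the scaling itself.

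Treatments were run side by side within each production run, so the groups may share runs, but no source ties a replicate number to the same run in both. Deviations from the group means of same-numbered libraries correlated at 0.03, 0.05 and 0.11 over 4994 genes, so the libraries were treated as unpaired. With a replicate block, 39 enzymes were higher and 22 lower, as without it, and 7379 of all tested genes were higher and 4082 lower. TPM gives no depth, and calls near the 1 TPM filter rest on levels whose counting error is unknown.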
